A study of Homo sapiens with 89 samples.

Results

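The enzymes and transporters of purine and pyrimidine nucleotide synthesis were followed through 2 human neuroblastoma lines by RNA sequencing of polyadenylated RNA. The set held 32 genes, picked by symbol from the 57905 genes of 2 count tables, and every one of them was found in both tables. By role they were 2 PRPP synthetases, 6 genes of purine synthesis up to IMP, 5 of the AMP and GMP branches and 5 of pyrimidine synthesis. A further 7 genes supply deoxynucleotides, 5 are nucleotide kinases and 2 are transporters. After the filter on low counts 32 were tested in IMR-32 and 31 in SHEP, where ADSS1 had 0 to 12 counts per library.

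IMR-32 is a neuroblastoma line known for amplified MYCN. Its cells carried an shRNA against EXOSC10, a nuclease of the nuclear RNA exosome, that doxycycline switches on. There were 3 control libraries without doxycycline and 3 with 1 µg/ml doxycycline and the shRNA active. SHEP is a neuroblastoma line known to lack that amplification. The labels give 3 libraries without MYCN and without doxycycline, 3 of induced wild type MYCN and 3 of MYCN 3A, a triple mutant described as deficient in RNA binding. Both forms were induced with 1 µg/ml doxycycline, so in every comparison with an untreated group the drug and the induced RNA cannot be told apart. Nothing in the labels says whether the 3 libraries of a group came from separate cultures, so p-values measure only the spread between these libraries.

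Nucleotides are built along routes that are shared by all dividing cells. PRPP, an activated ribose, is turned into IMP by a chain of purine enzymes, and IMP is split into AMP and GMP. The pyrimidine ring is made by CAD, DHODH and UMPS, and CTP is then made from UTP. Ribonucleotide reductase and thymidylate synthase turn these products into the precursors of DNA. Many of these genes are known targets of MYC proteins, which bind DNA as dimers with MAX at the E-box sequence CACGTG.

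Total counts per library were 16394148 to 26193478 in IMR-32 and 11638859 to 15353505 in SHEP. EXOSC10 had 12.4, 10.7 and 11.2 RPKM (counts per kilobase of exon, relative to the TMM-scaled library size) in the IMR-32 controls and 8.17, 7.78 and 7.68 in the depleted libraries. This is a fall of 0.54 on the log2 scale (SE 0.08, adjusted p = 2.3e-08, edgeR quasi-likelihood test with Benjamini-Hochberg adjustment over all genes tested). MYCN was 422 ± 5.89 RPKM (SD, n = 3) in those controls and 230 ± 2.12 in the depleted libraries, a log2 change of -0.87 (SE 0.04). In SHEP the MYCN gene had 0 to 10 counts in each of the 9 libraries, with 2, 0 and 0 in those labelled wild type. The MYCN counts therefore do not check the SHEP labels, and whether RNA of the induced forms can be counted at this gene was not tested. For that reason the SHEP groups are called by their labels throughout.

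Adrenergic markers (DBH, CHGA and others) summed to 1060 to 1140 RPKM in the IMR-32 controls and to at most 20.9 RPKM in the SHEP libraries labelled no MYCN. Mesenchymal markers summed to 102 to 107 and to 1080 to 1140 RPKM. Leukocyte, epithelial and endothelial markers summed to under 1 RPKM in every library, and Schwann cell markers to 2.93 to 6.64 RPKM in IMR-32 and under 1 RPKM in SHEP. The libraries of a SHEP group differed in a trend with gene length: residuals of WT-labelled replicates 1 and 3 correlated with exon length at Spearman rho 0.57 and -0.52 over 9935 genes. No-MYCN-labelled replicates 1 and 3 had rho 0.35 and -0.32, while the IMR-32 libraries lay between -0.12 and 0.14. The group differences followed length as well, with rho -0.45 for 3A-labelled against no-MYCN-labelled libraries and 0.40 for WT-labelled against 3A-labelled libraries. For WT-labelled against no-MYCN-labelled libraries rho was -0.03, and for EXOSC10 depletion 0.17. The part of this trend in the results below was not tested beyond the values given beside them.

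The start regions of the genes were compared first, because members that moved together could be read beside the motifs they hold. RefSeq windows of GRCh38.p14 from 250 bases before to 50 after the start were at hand for 30 members. CACGTG, which reads alike on both strands, was in the windows of 9 of the 30 (30.0%), against 12.3% of 12097 genes tested in either table. Those 9 were PPAT, PAICS, ATIC, DHODH, DCK, AK4, NME1, SLC19A1 and SLC29A1. PPAT and PAICS lie head to head on chromosome 4 with starts 126 bases apart in the hg19 models of the tables, so their windows share sequence. TTTCCCGC, an E2F-type motif searched on both strands, was in 4 windows (13.3% against 3.06%): PRPS2, TYMS, DUT and SLC19A1. CCAAT on either strand was in 9 (30.0% against 42.7%). The 3 motifs do not overlap each other in the stretches shown here. A match describes letters in a window and does not show that a factor binds there.

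The 250 bases before the start are printed for 4 members on the + strand. DHODH was higher in both induced SHEP groups, CAD and TYMS differed between those groups, and ATIC was lower after EXOSC10 depletion. Capitals mark CACGTG, TTTCCCGC or its reverse complement GCGGGAAA, and CCAAT or its reverse complement ATTGG.
DHODH, chr16:72008494-72008743: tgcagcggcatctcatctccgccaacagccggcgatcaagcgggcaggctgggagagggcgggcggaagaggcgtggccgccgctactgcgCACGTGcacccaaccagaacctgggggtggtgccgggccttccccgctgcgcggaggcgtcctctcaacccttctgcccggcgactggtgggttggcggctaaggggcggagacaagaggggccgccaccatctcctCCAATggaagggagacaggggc
CAD, chr2:27217119-27217368: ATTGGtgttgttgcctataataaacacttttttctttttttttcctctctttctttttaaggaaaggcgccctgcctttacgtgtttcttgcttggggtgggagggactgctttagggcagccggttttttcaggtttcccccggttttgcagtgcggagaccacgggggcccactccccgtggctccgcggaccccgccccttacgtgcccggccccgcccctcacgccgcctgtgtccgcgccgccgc
TYMS, chr18:657403-657652: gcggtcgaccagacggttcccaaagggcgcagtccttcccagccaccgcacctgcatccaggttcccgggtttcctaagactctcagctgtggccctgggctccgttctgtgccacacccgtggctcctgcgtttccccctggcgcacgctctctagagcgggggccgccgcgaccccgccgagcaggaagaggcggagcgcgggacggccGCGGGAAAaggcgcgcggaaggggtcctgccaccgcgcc
ATIC, chr2:215311809-215312058: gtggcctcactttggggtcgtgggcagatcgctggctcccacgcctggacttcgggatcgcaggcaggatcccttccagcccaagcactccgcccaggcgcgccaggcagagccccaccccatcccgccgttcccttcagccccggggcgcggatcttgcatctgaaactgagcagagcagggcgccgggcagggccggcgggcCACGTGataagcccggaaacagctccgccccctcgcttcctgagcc
The CACGTG of DHODH begins 159 bases before its start and that of ATIC 46 bases before, and the GCGGGAAA of TYMS begins 39 bases before. Neither CACGTG nor TTTCCCGC is in the CAD window.

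The kinases NME2 and NME1, which pass phosphate to nucleoside diphosphates, were the first and second members by level in all 5 groups, and ADSS1 and AK4 the lowest. NME2 averaged 151 ± 4.82 RPKM (SD, n = 3) in IMR-32 controls and 539 ± 34.6 in SHEP labelled no MYCN, and NME1 61.9 ± 1.09 and 287 ± 15.4. The exons of NME1 and NME2 overlap on the + strand of chromosome 17 (hg19 49230897 to 49239789 and 49230920 to 49249108) over 669 bases, and NME2 shares 37.6% of its length with their readthrough gene. In SHEP, reads there were counted for each gene, so the levels and calls of NME1 and NME2 are not independent. For IMR-32 no such setting is given here, and independence cannot be assumed. Next in IMR-32 controls came IMPDH2 at 58.9 ± 2.37, PAICS at 54.0 ± 1.95 and TYMS at 46.2 ± 3.79 RPKM. In SHEP they were IMPDH2 at 213 to 241, TYMS at 146 ± 3.57, TK1 at 142 ± 13.1 and RRM2 at 127 ± 1.85. TYMS at 142 to 149 and TK1 at 133 to 157 RPKM did not differ beyond their spread there.

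Between the untreated groups of the 2 lines, 14 of the 31 members tested in both tables were at least 2-fold higher in SHEP and 1 at least 2-fold lower, with 16 in between. ADSS1, left out because its counts in SHEP were too low for the test, was also lower there. It averaged 1.65 RPKM in IMR-32 controls and 0.0921 in SHEP, a ratio of 0.0559. Of all 12952 genes tested in both tables, 24.6% were at least 2-fold higher in SHEP and 28.7% lower. Among genes that feed DNA synthesis the SHEP to IMR-32 ratio of mean RPKM was 6.65 for RRM2, 6.28 for TK1, 4.05 for DCK, 3.62 for DTYMK, 3.17 for TYMS, 2.73 for RRM1 and 1.59 for DUT. PFAS, a purine enzyme of the IMP route, went the other way at 24.0 ± 0.899 RPKM in IMR-32 and 8.39 ± 0.273 in SHEP. CAD, which starts pyrimidine synthesis, had 26.8, 27.6 and 27.1 RPKM in the IMR-32 controls and 18.8, 18.9 and 18.0 in SHEP, and these ranges did not overlap. DHODH, and ADSL with a ratio of 1.99, lay just below the 2-fold line, and ATIC, at 2.20, was the nearest above it. Line and table changed together and each table was scaled on its own, so these ratios carry no test.

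**Figure D1:**
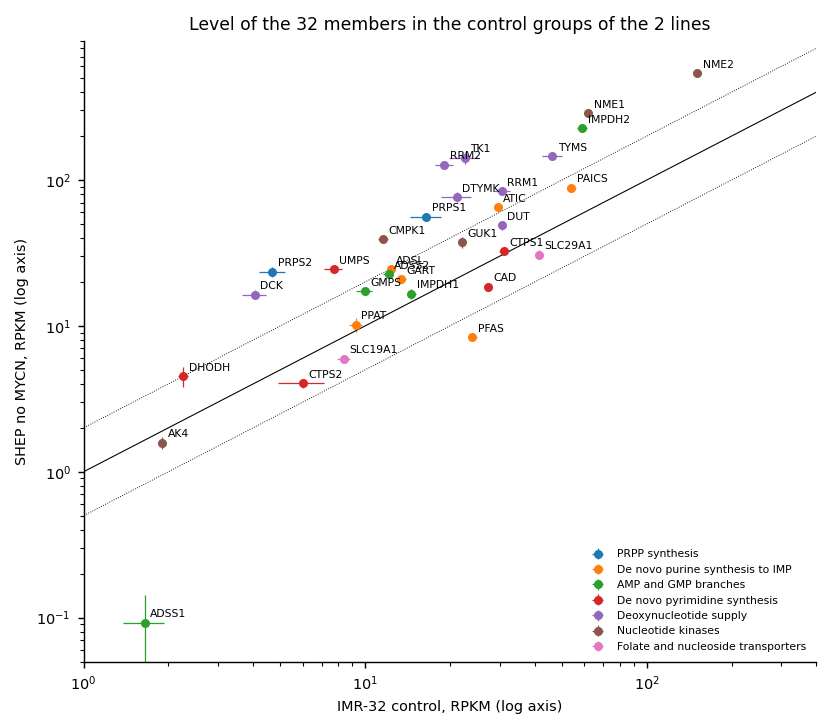
Mean level of each of the 32 members in IMR-32 controls (horizontal, RPKM, log axis) and in SHEP libraries labelled no MYCN (vertical, RPKM, log axis), with SD of 3 libraries as bars and colours for roles; the solid line marks equal levels and the dotted lines 2-fold differences. Of the members tested in both tables, 14 lie 2-fold or more above the line, and PFAS lies below it by that much.

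On EXOSC10 depletion in IMR-32 the members split, with 3 of 32 rising and 8 falling. Of all 17103 genes tested 13.5% rose and 13.7% fell, so the share of rises among the members (9.38%) was below that of all genes and the share of falls (25.0%) above it. The falls were PRPS2, PAICS, ATIC, IMPDH2, GMPS, RRM1, NME1 and NME2, and the rises PFAS, IMPDH1 and SLC29A1. The median log2 fold change of the members was -0.06 and that of all genes 0.00. Without regard to the test, all depleted libraries lay above all controls for 3 of 32 members and below them for 10. Among all genes the shares were 18.7% and 19.7%. None of the 5 pyrimidine synthesis genes passed the test.

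PRPS2 makes PRPP, the ribose donor of both pathways. It had 4.85, 4.12 and 5.07 RPKM in the controls and 3.16, 3.16 and 3.85 after depletion, a log2 change of -0.46 (SE 0.15, adjusted p = 0.0141). The groups did not overlap, but the call was lost without control replicate 3 or depleted replicate 1 or 2 (adjusted p up to 0.0763). Its paralog PRPS1, 16.5 ± 2.13 RPKM in the controls, was at -0.20 (adjusted p = 0.132).

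In the route to IMP, ATIC, which carries out the last steps, went from 28.6, 30.1 and 29.9 to 23.6, 22.2 and 22.5 RPKM. Every depleted library lay below every control, at a log2 change of -0.37 (SE 0.06, adjusted p = 8.0e-07). PPAT, the committed first step, had 8.87, 9.83 and 9.12 RPKM in the controls and 8.62, 9.95 and 8.73 after depletion, and these overlap. PAICS, an earlier enzyme of the route, was at -0.14 (adjusted p = 0.027), a call lost without any 1 library other than control replicate 1 (adjusted p up to 0.0976). It was also lost with library totals (0.0784). PFAS was higher by 0.17 (adjusted p = 0.00937), a call lost without control replicate 2 or depleted replicate 3 (up to 0.0633). GART (-0.12) and ADSL (-0.10) were not called although their ranges did not overlap.

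The 2 IMP dehydrogenases, which commit IMP to GMP, moved in opposite directions. IMPDH1 had 14.5, 14.1 and 15.1 RPKM in the controls and 22.7, 21.3 and 21.2 after depletion, a log2 change of 0.58 (SE 0.07, adjusted p = 3.6e-10). IMPDH2 had 61.4, 58.5 and 56.7 RPKM in the controls and 48.3, 42.5 and 43.6 after depletion, a log2 change of -0.39 (SE 0.06, adjusted p = 4.1e-08). Neither pair of groups overlapped, and both calls held without any 1 library. GMPS, which makes GMP from XMP, was at -0.20 (adjusted p = 0.0168), a call lost without control replicate 2 or depleted replicate 1 or 2 (up to 0.124). ADSS1 and ADSS2, on the way to AMP, were at 0.09 and -0.02 and were not called.

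In pyrimidine synthesis 0 of 5 genes passed the test, with 0 of 5 at an unadjusted p under 0.05. CAD had 29.4, 27.0 and 29.2 RPKM after depletion, which overlaps its controls (log2 fold change 0.07, SE 0.05). CTPS1, which makes CTP, had 31.1, 32.3 and 29.8 in the controls and 32.4, 34.0 and 32.3 after depletion (0.08, SE 0.05). DHODH, UMPS and CTPS2 were at 0.14, 0.02 and -0.05.

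RRM1, the large subunit of ribonucleotide reductase, had 28.3, 31.7 and 31.7 RPKM in the controls and 24.2, 24.9 and 25.4 after depletion. The groups did not overlap and the log2 fold change was -0.30 (SE 0.06, adjusted p = 4.8e-05). Its small partner RRM2 had 18.0, 18.7 and 20.7 RPKM in the controls and 16.5, 18.6 and 18.3 after depletion, which overlap (-0.10, adjusted p = 0.274). TYMS, which makes dTMP, had 42.2, 46.6 and 49.7 in the controls and 43.0, 44.1 and 43.0 after depletion, which also overlap (-0.09, adjusted p = 0.296). The other 4 genes of this group, DUT, DTYMK, TK1 and DCK, lay between -0.12 and -0.06 and were not called.

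Among kinases and transporters, NME2 went from 149, 157 and 148 to 121, 126 and 130 RPKM, without overlap, at a log2 change of -0.27 (SE 0.04, adjusted p = 9.0e-07). NME1 was at -0.17 (adjusted p = 0.00759), a call lost without depleted replicate 2 (0.0641). SLC29A1, an equilibrative nucleoside transporter, had 40.5, 42.0 and 41.5 RPKM in the controls and 49.7, 47.7 and 46.9 after depletion (0.22, SE 0.05, adjusted p = 0.00103). The folate carrier SLC19A1 was at 0.14 and AK4, a mitochondrial adenylate kinase, at 0.26, and neither was called. CMPK1 (0.00) and GUK1 (0.07) were not called either. The number of members that fell was 5 without depleted replicate 1 and 4 without depleted replicate 2, where 11.1% and 11.7% of all genes fell. Without the latter the members' share was thus near that of all genes. Beside these values, 7 of 8 adrenergic markers fell in the same libraries and 1, TH, rose, their sum going to 615 to 634 RPKM. Of 5 mesenchymal markers tested 1 rose (VIM at 0.47) and 2 fell (FN1 and TWIST1). The sum of the mesenchymal markers was 97.5 to 102 RPKM after depletion. The part of either list in the result was not tested. Mitochondrially encoded genes took 6.70 to 7.49% of counts in the controls and 7.90 to 8.22% after depletion.

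**Figure D2:**
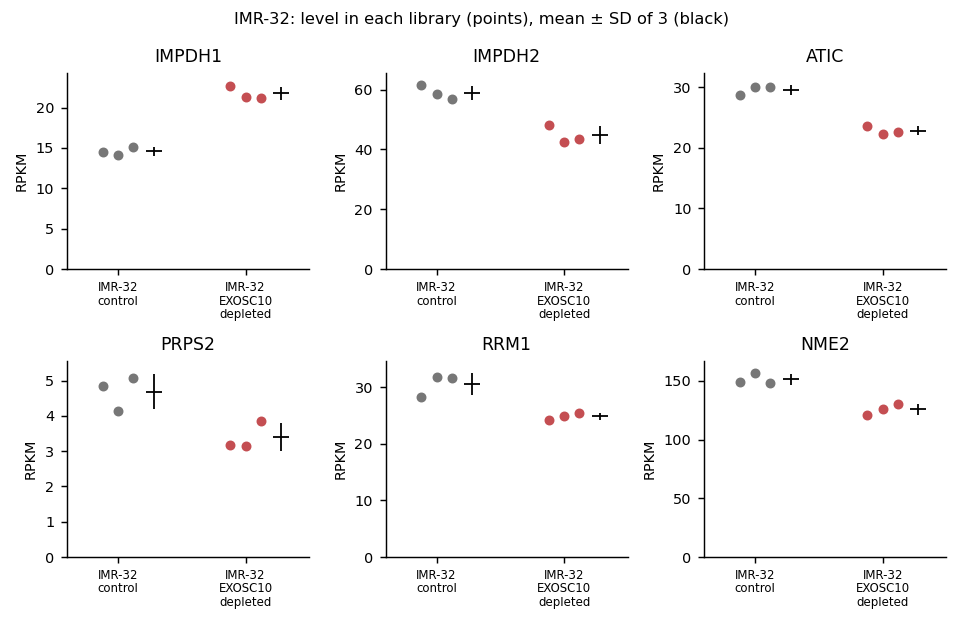
Level in RPKM of 6 members in the 3 control and 3 EXOSC10-depleted IMR-32 libraries (points, one for each library) with mean ± SD in black. IMPDH1 is higher in all depleted libraries, and IMPDH2, ATIC, PRPS2, RRM1 and NME2 are lower in all of them.

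In SHEP, the libraries labelled wild type MYCN were compared with those labelled no MYCN to ask which members change when the form is induced. Of the 31 members tested 11 rose and 2 fell, against 10.9% rises and 11.3% falls among all 14923 genes tested. As shares of the members these are 35.5% and 6.45%. The rises were led by the folate carrier SLC19A1 and the pyrimidine genes DHODH, CTPS1 and CAD, and the falls were CTPS2 and IMPDH2. The members' median log2 fold change was 0.16 and that of all genes 0.00. All WT-labelled libraries lay above the no-MYCN-labelled ones for 13 of the 31 members and below them for 2. Among all genes the shares were 18.5% and 19.0%.

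Of the PRPP and IMP genes 1 passed the test: PAICS went from 88.6 ± 1.98 to 111 ± 3.69 RPKM (SD, n = 3 each), a log2 change of 0.32 (adjusted p = 0.00469). PPAT had 11.5, 9.30 and 9.77 RPKM in the no-MYCN-labelled and 11.9, 11.1 and 10.6 in the WT-labelled libraries, which overlap. The other IMP genes lay between 0.10 for ATIC and 0.29 for PFAS, and PRPS1 and PRPS2 at 0.08 and -0.13. In the AMP and GMP branches IMPDH1 was at 0.30 (adjusted p = 0.046) and GMPS at 0.26 (0.0203). IMPDH2 had 213, 226 and 241 RPKM in the no-MYCN-labelled and 176, 191 and 206 in the WT-labelled libraries, without overlap (-0.25, SE 0.09, adjusted p = 0.0421). ADSS2 was at 0.06 and was not called.

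Pyrimidine synthesis held 3 of the 5 largest rises. DHODH, the mitochondrial enzyme that oxidises dihydroorotate, had 4.33, 3.95 and 5.26 RPKM without and 6.29, 7.54 and 6.86 with the wild type label, a log2 change of 0.61 (SE 0.14, adjusted p = 0.00251). CTPS1 had 31.9, 31.8 and 33.7 and then 49.2, 48.1 and 50.6 RPKM, a log2 change of 0.60 (SE 0.08, adjusted p = 5.6e-06). CAD went from 18.8, 18.9 and 18.0 to 30.7, 23.0 and 23.3 RPKM, a log2 change of 0.47 (SE 0.10, adjusted p = 0.00187). None of these groups overlapped, and the 3 calls held without any 1 library. WT-labelled replicate 1 stood above its group for CAD, and without it the log2 fold change was 0.32 (adjusted p = 0.00952). CTPS2, the lower of the CTP synthases, went from 4.23, 3.71 and 4.18 to 2.76, 2.85 and 3.32 RPKM (-0.44, SE 0.14, adjusted p = 0.0205). UMPS was at -0.04 and was not called.

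Of the deoxynucleotide genes TYMS rose from 142, 149 and 148 to 185, 194 and 206 RPKM, without overlap (0.41, SE 0.08, adjusted p = 4.3e-04). TYMS exons face ENOSF1 on the other strand over 18.8% of their length, where counting by strand keeps the genes apart. RRM2 went from 125, 127 and 129 to 143, 149 and 152 RPKM, also without overlap (0.22, SE 0.08, adjusted p = 0.044). RRM1 (0.16) and DUT (0.23) were not called, at adjusted p = 0.155 and 0.0507. DTYMK, TK1 and DCK were at 0.13, -0.12 and 0.05. Of the kinases CMPK1, which phosphorylates CMP and UMP, was called at 0.29 (adjusted p = 0.0154). NME1 (0.15), NME2 (0.14), AK4 (0.10) and GUK1 (-0.06) were not.

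SLC19A1 had 5.72, 5.99 and 6.18 RPKM without and 10.8, 10.3 and 10.4 with the wild type label, without overlap (0.82, SE 0.10, adjusted p = 2.5e-06). SLC29A1 had 28.5, 30.7 and 33.1 and then 33.2, 42.6 and 38.7 RPKM (0.31, SE 0.09, adjusted p = 0.0178). Calls near the threshold depended on single libraries: 7 members rose without no-MYCN-labelled replicate 1 or WT-labelled replicate 2, and 6 without no-MYCN-labelled replicate 2. Of all genes 8.07%, 8.28% and 7.37% rose in these 3 fits. Those lost in one of these were IMPDH1, GMPS, RRM2, CMPK1 and SLC29A1, at adjusted p up to 0.174, 0.0737, 0.139, 0.0857 and 0.115. GMPS was also lost without no-MYCN-labelled replicate 3 or WT-labelled replicate 1, and CMPK1 and RRM2 without no-MYCN-labelled replicate 3. IMPDH1 and RRM2 were lost without WT-labelled replicate 3 or 3A-labelled replicate 2 as well. The falls numbered 1 without no-MYCN-labelled replicate 1 or 2 or 3A-labelled replicate 2. They numbered 0 without no-MYCN-labelled replicate 3 or WT-labelled replicate 1 or 2. The adjusted p of CTPS2 then reached 0.107 and that of IMPDH2 0.186. Of all genes 8.65%, 7.75% and 10.4% fell in the 3 fits with 1 fall, and 7.97%, 11.2% and 6.95% in the 3 with 0. Scaled by library totals in place of TMM, 6 members rose and 2 fell, and of all genes 1163 rose and 2147 fell in place of 1634 and 1681. Beside these values, 4 of 8 mesenchymal markers rose and 2 fell, their sum going from 1080 to 1140 RPKM to 1360 to 1420 RPKM, and their part in the result was not tested.

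The libraries labelled MYCN 3A were compared with the same no-MYCN-labelled libraries, so the 2 comparisons share their controls. Here 13 of 31 members rose (41.9%) and 0 fell (edgeR), against 12.7% and 12.8% of all genes. Of the 31, 17 had an unadjusted p under 0.05, against 37.3% of all genes. DESeq2 called 16 rises and 0 falls of members, beside 14.3% and 12.3% of all genes. The rises were ADSL, ATIC, IMPDH1, DHODH, UMPS, CTPS1, DUT, DTYMK, GUK1, NME1, NME2, SLC19A1 and SLC29A1. The members' median log2 fold change was 0.20 and that of all genes -0.04. All 3A-labelled libraries lay above the no-MYCN-labelled ones for 16 of the 31 members and below them for 1. Among all genes the shares were 19.3% and 22.0%.

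In the IMP route ADSL, which also acts in AMP synthesis, was at 0.34 (adjusted p = 0.0037) and ATIC at 0.26 (0.0243). PPAT had 12.4, 11.7 and 9.84 RPKM, which overlaps the no-MYCN-labelled libraries (0.15, SE 0.11). PAICS (0.20) and PRPS1 (0.20) were not called, at adjusted p = 0.0667 and 0.0825, and GART (-0.18), PFAS (-0.09) and PRPS2 (0.06) were not either. IMPDH1 had 15.6, 16.1 and 18.1 RPKM in the no-MYCN-labelled and 20.9, 26.5 and 27.9 in the 3A-labelled libraries, without overlap (0.60, SE 0.11, adjusted p = 4.4e-04). IMPDH2 had 209, 222 and 247 RPKM, which spans the no-MYCN-labelled values (-0.01, SE 0.09). GMPS and ADSS2 were at 0.06 and 0.02.

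CAD had 16.2, 19.1 and 20.5 RPKM in the 3A-labelled libraries, which spans the no-MYCN-labelled values (0.00, SE 0.10). DHODH had 5.67, 7.30 and 7.22 RPKM, above every no-MYCN-labelled library (0.58, SE 0.14, adjusted p = 0.00455). UMPS, which makes UMP, went from 24.2, 25.9 and 23.6 to 31.9, 30.1 and 31.7 RPKM (0.35, SE 0.08, adjusted p = 0.00443). CTPS1 had 35.5, 39.9 and 38.4 RPKM, above the no-MYCN-labelled range (0.22, SE 0.08, adjusted p = 0.0381). CTPS2 was at -0.05 and was not called.

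RRM2 had 128, 127 and 119 RPKM and TYMS 165, 155 and 162 RPKM in the 3A-labelled libraries, at -0.03 and 0.13, and neither was called. DUT, which removes dUTP, was called at 0.43 (adjusted p = 8.5e-04) and DTYMK, the thymidylate kinase, at 0.38 (0.00826). RRM1, TK1 and DCK were at 0.02, 0.00 and -0.25. NME1 went from 284, 273 and 304 to 428, 448 and 511 RPKM (0.69, SE 0.09, adjusted p = 3.0e-05). NME2 went from 511, 528 and 578 to 762, 815 and 930 RPKM (0.63, SE 0.10, adjusted p = 8.7e-05), and neither kinase overlapped its controls. GUK1, the guanylate kinase, was called at 0.32 (adjusted p = 0.0146), while AK4 (0.45, 0.0521) and CMPK1 (0.14) were not.

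SLC19A1 had 7.59, 9.40 and 10.2 RPKM (0.60, SE 0.10, adjusted p = 2.2e-04) and SLC29A1 42.5, 44.6 and 43.3 RPKM (0.50, SE 0.09, adjusted p = 5.6e-04), all above the no-MYCN-labelled libraries. The calls of ATIC and CTPS1 were lost without any 1 of the no-MYCN-labelled libraries or 3A-labelled replicate 2 or 3 (adjusted p up to 0.122 and 0.159). GUK1 was lost without no-MYCN-labelled replicate 1 or 2 or 3A-labelled replicate 3 (up to 0.0979), and DTYMK without 3A-labelled replicate 2 (0.053). With library totals the median of all genes was -0.14 in place of -0.04, and the totals gave 1232 rises and 2928 falls among them, in place of 1893 and 1913. Under that scaling 10 members rose and 1, GART, fell (-0.28, adjusted p = 0.0245). ATIC (0.16, adjusted p = 0.108), CTPS1 (0.12, 0.21) and GUK1 (0.22, 0.0543) were then not called, and CTPS1 was also lost with no filter on low counts (0.0938). EXOSC10 itself was at -0.40 in the 3A-labelled libraries (adjusted p = 0.00954), a call lost without no-MYCN-labelled replicate 1 or 3A-labelled replicate 2 (up to 0.0787). With the wild type label it was at 0.20 against no MYCN (adjusted p = 0.195) and was not called. Against 3A it was higher with the wild type label by 0.60 (adjusted p = 2.5e-04), a call that held without any 1 library. Of the mesenchymal markers 0 of 8 rose and 4 fell with 3A (edgeR), FN1 by most (-0.99). Their sum was 1030 to 1100 RPKM, and their part in the result was not tested.

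**Figure D3:**
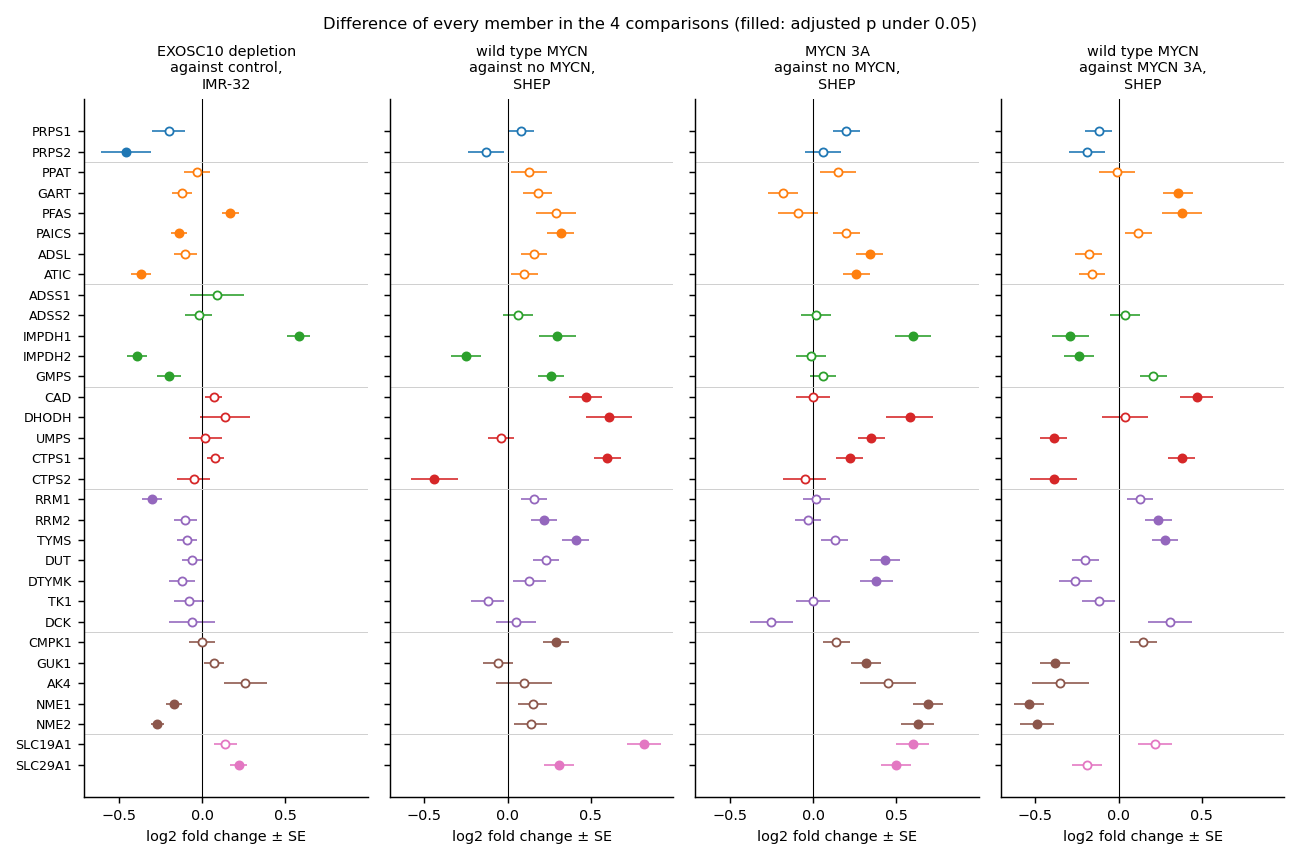
Log2 fold change with SE (horizontal) of each member (rows, coloured and grouped by role) in the 4 comparisons (panels), with filled points where the adjusted p was under 0.05; ADSS1 is not shown in SHEP, where it was not tested. On EXOSC10 depletion 8 filled points lie left of 0, and in the 3A panel all 13 lie right of it.

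The WT-labelled and 3A-labelled libraries, which both had doxycycline, were compared directly. Of the 31 members 6 were higher with the wild type label (19.4%) and 7 lower (22.6%), against 15.8% and 14.5% of all genes. CAD, CTPS1, PFAS, GART, TYMS and RRM2 were higher, and NME1, NME2, UMPS, CTPS2, GUK1, IMPDH1 and IMPDH2 were lower. The median of the members was -0.12 and that of all genes 0.00. The groups did not overlap for 10 of the 31 members higher and 9 lower with the wild type label. Among all genes the shares were 20.5% and 19.9%. Within pyrimidine synthesis alone 2 genes were higher and 2 lower.

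Among the IMP genes GART, which carries out 3 steps of the route, had 26.2, 23.5 and 21.7 RPKM with the wild type label and 19.2, 19.3 and 17.1 with 3A (0.36, SE 0.09, adjusted p = 0.0028). PFAS had 12.8, 9.21 and 8.71 and then 7.58, 8.42 and 7.69 RPKM, without overlap (0.38, SE 0.12, adjusted p = 0.0207). WT-labelled replicate 1 again stood apart, and without it PFAS was at 0.18 (adjusted p = 0.222). Without 3A-labelled replicate 1 or 3 that call was lost as well. PPAT was at -0.01 with overlapping values. ATIC (-0.16), ADSL (-0.18), PAICS (0.12), PRPS1 (-0.12) and PRPS2 (-0.19) were not called.

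CAD, at 30.7, 23.0 and 23.3 RPKM with the wild type label and 16.2, 19.1 and 20.5 with 3A, was higher by 0.47 (SE 0.10, adjusted p = 0.00162), and by 0.32 (0.0111) without WT-labelled replicate 1. CTPS1 was higher by 0.38 (SE 0.08, adjusted p = 8.4e-04) and its groups did not overlap. UMPS, at 23.4, 23.4 and 24.8 against 31.9, 30.1 and 31.7 RPKM, was at -0.39 (SE 0.08, adjusted p = 0.00143). CTPS2, at 2.76, 2.85 and 3.32 against 4.25, 3.70 and 3.75 RPKM, was also at -0.39 (SE 0.14, adjusted p = 0.033). DHODH was at 0.04 (SE 0.14) with overlapping values.

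TYMS was higher by 0.28 (SE 0.08, adjusted p = 0.00915) and RRM2 by 0.24 (SE 0.08, adjusted p = 0.0196), and in both every WT-labelled library lay above every 3A-labelled one. The other 5 deoxynucleotide genes, from DTYMK at -0.26 to DCK at 0.31, were not called. NME1 was at -0.54 (SE 0.09, adjusted p = 1.5e-04) and NME2 at -0.49 (SE 0.10, adjusted p = 4.8e-04). GUK1, at 32.6, 35.6 and 39.8 against 43.5, 45.0 and 52.2 RPKM, was at -0.38 (SE 0.09, adjusted p = 0.00377). IMPDH2 (-0.24, adjusted p = 0.0383) and IMPDH1 (-0.29, adjusted p = 0.0405) were called too, IMPDH1 with overlapping values. GMPS (0.21), ADSS2 (0.04), CMPK1 (0.15), AK4 (-0.35), SLC19A1 (0.22) and SLC29A1 (-0.19) were not called.

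Beside these values, 6 of 8 mesenchymal markers were higher and 1 lower with the wild type label than with 3A, their sums being 1360 to 1420 and 1030 to 1100 RPKM. Their part in the differences was not tested. Several of the calls were lost when 1 library was left out. The number lower with the wild type label was 4 without WT-labelled replicate 1 or 3A-labelled replicate 2, where 10.4% and 10.8% of all genes were lower. IMPDH1 and IMPDH2 were lost without either of these, without no-MYCN-labelled replicate 2 or without 3A-labelled replicate 3. IMPDH1 was also lost without WT-labelled replicate 3 and IMPDH2 without WT-labelled replicate 2 (adjusted p up to 0.197 and 0.183). CTPS2 was lost without replicate 1 or 2 of either form (up to 0.114). RRM2 was lost without WT-labelled replicate 2 or 3A-labelled replicate 3 (up to 0.0751), and TYMS without 3A-labelled replicate 2 (0.0529).

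CAD, PFAS and GART have long exons (8422, 6471 and 7804 bases), and NME1 and NME2 shorter ones (3438 and 3301). With the length trend of each library removed, CAD was at 0.29 (adjusted p = 0.0168), GART at 0.21 (0.0323) and PFAS at 0.26 (0.0695) between the 2 forms. CTPS1 was at 0.29, TYMS at 0.43, UMPS at -0.33, GUK1 at -0.41, NME1 at -0.48 and NME2 at -0.42, all still called. Against no MYCN the same setting put CAD at 0.46 with the wild type label and at 0.17 (adjusted p = 0.198) with 3A. Under it IMPDH1 (-0.25, adjusted p = 0.0619) and IMPDH2 (-0.12, 0.216) were not called between the forms, nor DTYMK (0.22, 0.0579) with 3A. It also added calls with 3A: TK1 (-0.22, adjusted p = 0.0394) and DCK (-0.34, 0.0416) were lower, and PAICS (0.19, 0.0482), GMPS (0.23, 0.0254) and AK4 (0.59, 0.0109) higher. Between the forms it added ADSL (-0.28, adjusted p = 0.0114) and AK4 (-0.50, 0.0237) as lower and DCK (0.39, 0.0175) as higher with the wild type label. Against no MYCN it added DUT (0.23, 0.0253) as higher with the wild type label. On EXOSC10 depletion it ended the calls of PAICS (-0.11, 0.0721) and NME1 (-0.12, 0.0592). This setting also takes out a length trend that a whole group shares, and it was chosen after seeing the data.

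**Figure D4:**
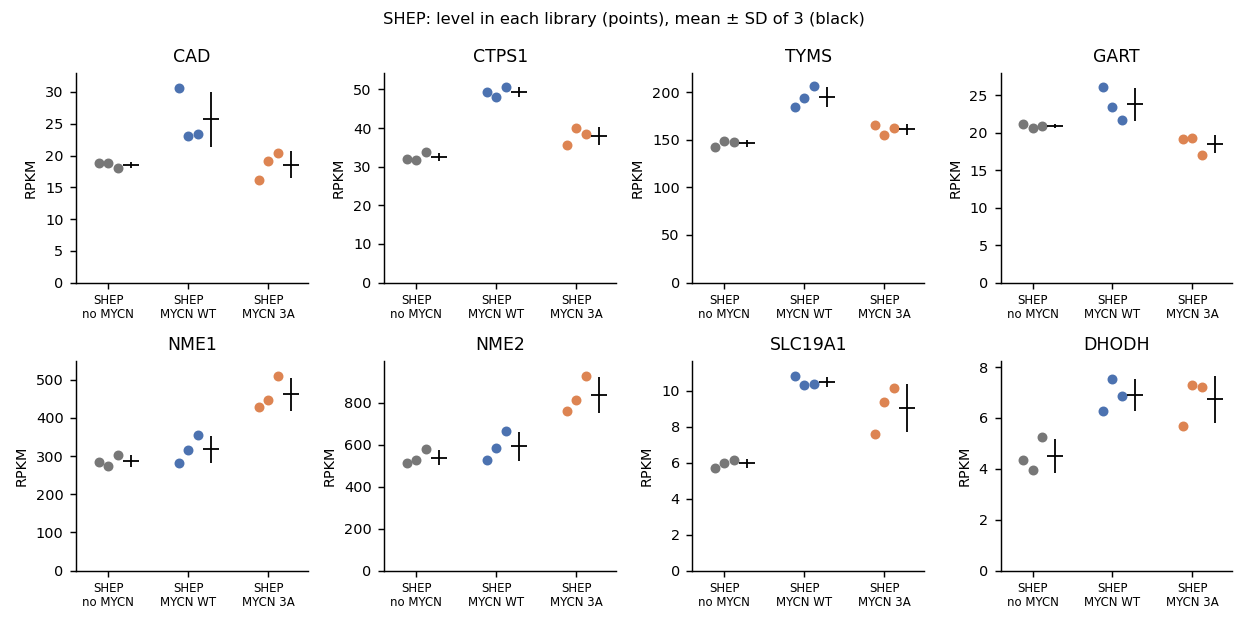
Level in RPKM of 8 members in the 3 libraries of each SHEP label (points, one for each library) with mean ± SD in black. CAD, CTPS1, TYMS and GART are highest in the WT-labelled libraries, NME1 and NME2 in the 3A-labelled ones, and SLC19A1 and DHODH are above the no-MYCN-labelled libraries in both.

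Across the 3 comparisons with an untreated group, IMPDH1 and SLC29A1 were the 2 members called higher each time, and 0 were called lower each time (edgeR). PAICS and GMPS were called lower on EXOSC10 depletion and higher with the wild type label. Apart from the PAICS rise, these calls were lost in some fits that left out a single library. So were the wild type calls of IMPDH1 and SLC29A1. PRPS1, PPAT, ADSS1, ADSS2, TK1, DCK and AK4 passed the test in no comparison. With the wild type label 6 members were called higher that were not called with 3A, and for 8 it was the reverse. The direct comparison called 3 of those 6 (CAD, TYMS and RRM2) higher with the wild type label and 4 of those 8 (NME1, NME2, UMPS and GUK1) lower. The other members of both sets were not called between the forms in this fit. How many of all genes show each of these patterns was not counted, and the wild type and 3A comparisons share their controls. The counts in this paragraph therefore describe the members only.

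The paralog pairs kept their order of levels in every group but not their proportions. IMPDH1 made up 19.1, 19.4 and 21.0% of the summed RPKM of IMPDH1 and IMPDH2 in IMR-32 controls and 31.9, 33.4 and 32.7% after depletion. In SHEP its share was 6.80, 6.66 and 6.96% with the no-MYCN label, 9.77, 10.5 and 8.83% with wild type and 9.11, 10.7 and 10.1% with 3A. All libraries with doxycycline were above those without in the same line. CTPS1 made up 88.9 ± 0.639% (SD, n = 3) of its pair with the no-MYCN label, 94.3 ± 0.425% with wild type and 90.6 ± 1.17% with 3A, and 83.8 ± 2.12% and 84.9 ± 0.366% in IMR-32 controls and depleted libraries.

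NME1 made up 28.5 to 31.2% of its pair in IMR-32 and 34.1 to 36.0% in SHEP. The exons of NME1 and NME2 overlap, so reads on both may keep this share steady. It does not show that each gene moved. PRPS1 made up 77.8 ± 3.35% of its pair in IMR-32 controls, 80.8 ± 0.718% after depletion and 70.5 ± 2.42 to 73.5 ± 1.54% in SHEP. RRM2 made up over 90% of its sum with RRM2B, the p53-inducible small subunit, in every library: 91.4 ± 0.291% in IMR-32 controls, 90.3 ± 0.130% after depletion and 96.9 ± 0.350% with the no-MYCN label. ADSS1, the muscle form, made up 14.5, 10.7 and 10.9% of its pair in IMR-32 controls and under 1% in each SHEP library.

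**Figure D5:**
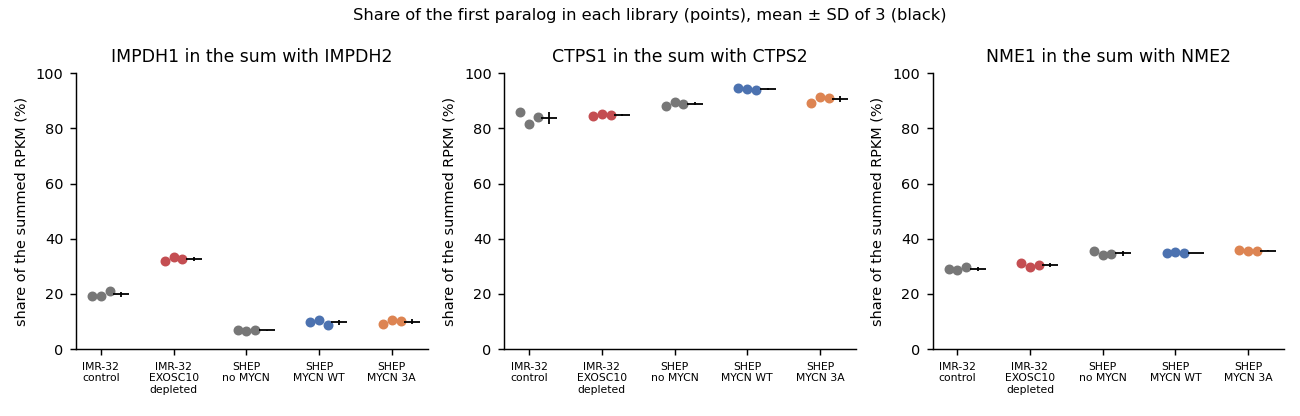
Share (%) of the first paralog in the summed RPKM of 3 pairs for each of the 15 libraries (points, grouped by line and label), with mean ± SD in black. The IMPDH1 share is higher in every doxycycline-treated library than in the untreated ones of its line, CTPS1 is highest with the wild type label, and the NME1 share stays between 28.5 and 36.0%.

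Genes outside the set that feed the same pathways were counted from lists. Of all genes tested, 13.5% rose and 13.7% fell on depletion, and 10.9% and 11.3% with the wild type label. With 3A 12.7% rose and 12.8% fell, and between the forms 15.8% were higher and 14.5% lower with the wild type label. The counts of each list are to be read beside these shares, and no list was tested as a set. Folate one-carbon enzymes supply the formyl groups of the purine ring and the methyl group of dTMP. Of 13 tested in IMR-32, 1 rose and 6 fell on depletion, led by SHMT2 (-0.87) and ALDH1L2 (-0.99). Of 11 tested in SHEP, 3 rose and 1 fell with the wild type label, with MTHFD2 at 0.68 and SHMT2 at 0.47. With 3A 2 rose and 0 fell, MTHFD2 at 0.49 and MTHFD1L at 0.30, and between the forms SHMT1 was at -0.41 and SHMT2 at 0.29.

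The pentose phosphate pathway provides ribose phosphate. Of its 7 genes 0 rose and 2 fell on depletion (TKT at -0.28, TALDO1 at -0.35), and 4 rose and 0 fell with the wild type label (PGD at 0.41, TALDO1 at 0.42). With 3A 2 rose (RPIA at 0.58), and between the forms 2 were higher and 1 lower (PGD at 0.50, TKT at 0.39).

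Salvage genes reuse free bases and nucleosides. Of 12 tested in IMR-32, 1 rose and 3 fell, with HPRT1 at -0.56 and UCK2 at -0.18. Of 13 in SHEP, 6 rose and 1 fell with the wild type label, with ADK at 0.55 and UPP1 at -0.78. With 3A 6 rose and 0 fell, with UCK2 at 0.59 and PNP at 0.48, and between the forms 2 were higher and 3 lower, with UPP1 at -0.78 and DCTD at 0.44.

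Of 17 breakdown and cleanup genes tested, 5 rose and 3 fell on depletion (NT5E at 2.11, DPYD at -0.56), and 2 rose and 2 fell with the wild type label (ADA at -1.22, DCTPP1 at 0.63). With 3A 6 rose and 3 fell (DCTPP1 at 0.85, ITPA at 0.53), and between the forms 4 were higher and 7 lower (ADA at -1.37, NT5M at -1.34). Other kinases and reductase partners had 1 rise and 2 falls of 13 on depletion (AK1 and NME7, both -0.43) and 4 falls of 12 with the wild type label (NME3 at -1.06). With 3A 1 fell (RRM2B at -0.46), and between the forms 0 were higher and 5 lower (NME3 at -1.05, PRPSAP1 at -0.43). Of the other nucleoside transporters SLC29A4 fell on depletion (-0.16), and 0 of the 2 tested in SHEP were called.

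S phase genes outside the set, which use the deoxynucleotides, had 1 rise and 12 falls among 26 on depletion, with CCNE1 at 0.80 and CHAF1B at -0.57. Of all genes 13.5% rose and 13.7% fell there. With the wild type label 5 rose and 0 fell (UNG at 0.52, E2F1 at 0.37). With 3A 11 rose and 1 fell (GINS3 at 0.58, PCNA at 0.33), and between the forms 4 were higher and 5 lower (GINS3 at -0.49, GINS1 at -0.40). Their medians were -0.17, 0.10, 0.20 and -0.05 in the 4 comparisons, beside -0.06, 0.16, 0.20 and -0.12 for the members. In bulk RNA, a change in the share of dividing cells and a change in RNA per cell cannot be told apart.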

How the data were processed

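The 15 RNA-seq libraries were analysed and the other 74 samples of the series were not analysed here. Per the submitters' processing notes, STAR 2.7.10a and featureCounts 2.0.3 were used with hg19. The deposited values are raw counts per gene, and per the file headers the SHEP counts were made by strand from Ensembl release 87 models, with reads on several genes counted for each. Read ends appear to be counted singly, since 66.4 and 76.3% of counts from 1 to 10 were even, so counts are not independent molecules. The IMR-32 columns name solvent or doxycycline and a replicate number, and samples were matched on these.

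With R 4.3.3, edgeR 4.0.16 was run with filterByExpr, TMM and the robust quasi-likelihood test, with Benjamini-Hochberg adjustment at 0.05 over 17103 genes in IMR-32 and 14923 in SHEP, all SHEP groups in 1 fit. The script was tested on simulated data with 200 changed genes. Alternatives were DESeq2 1.42.0, other scalings and filters, a replicate block, leaving out each library and 2 length corrections. RPKM used the exon lengths of the tables, and each table was scaled on its own. Named were all members, with every library's value for CAD, PPAT, IMPDH2, CTPS1, RRM2, TYMS and the 6 largest calls of a comparison, EXOSC10 and MYCN, and the 2 smallest p of each list. Members and lists were chosen with earlier results of these data known. Values of a few genes of the lists outside the members are not reported here.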

Additional observations from a re-analysis of the deposited data

How the results depend on the processing

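Of 50 calls of a member in a comparison, 28 held under every alternative run and 33 under every alternative that left out no library. No called value changed sign under any of them, and 76 of 2204 values were uncalled under both settings and had the other sign. Leaving out 1 library gave 2 to 4 rises and 4 to 9 falls of members on EXOSC10 depletion, and 6 to 13 and 0 to 2 with the wild type label. It gave 10 to 15 and 0 to 1 with 3A, and 5 to 7 and 4 to 8 between the forms. The shares of all genes changed between these fits too, so these ranges are not set against a background. For the wild type label, library totals gave 6 rises in place of 11, and RLE size factors 1 fall in place of 2. For 3A, falls went from 0 to 1 with library totals, the replicate block or the length trend as a covariate, and to 2 with the length trend removed. Of all genes 19.6%, 16.5%, 17.5% and 11.6% fell in these 4 fits. Between the forms, members lower with wild type went from 7 to 12 with the replicate block, to 12 with the length covariate and to 4 in a fit of the 6 libraries compared. Of all genes 17.5%, 19.2% and 12.6% were lower in these 3 fits, in place of 14.5%. Residuals of same-numbered libraries of different groups correlated at r = 0.03 to 0.04 in IMR-32 and -0.03 to 0.14 in SHEP. Those of different-numbered libraries lay at -0.03 to -0.01 and at -0.13 to 0.06. The labels describe no pairing, so the main fits held no block, and whether the numbers mark pairs was not tested. In SHEP the length trend was positive in replicate 1 of each label (rho 0.35, 0.57 and 0.15) and negative in replicate 3 (-0.32, -0.52 and -0.20). Members higher with wild type went from 6 to 9 with the block, where 18.8% of all genes were higher in place of 15.8%. The block added GMPS (adjusted p = 0.0176), DCK (0.0221) and SLC19A1 (0.0404, edgeR). Those it added as lower were ADSL (0.0293), ATIC (0.04), DUT (0.0213), DTYMK (0.00473) and SLC29A1 (0.0412). With the block 5251, 4184, 4794 and 5414 genes were called in place of 4639, 3315, 3806 and 4527. The cause of these changes was not tested. Low counts limit ADSS1, which was not tested in SHEP.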
